A study of Homo sapiens with 16 samples.

Results

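The liver X receptors and genes they are known to control were followed in colorectal cancer cells given itraconazole. The set held 7 genes, matched by symbol, with earlier results of these data known when they were chosen: the receptors NR1H2 and NR1H3, their dimer partner RXRA, the cholesterol exporters ABCA1 and ABCG1, and the lipid genes MYLIP and LPCAT3. Each symbol matched 1 of the 54127 genes counted, and all 7 passed the filter on low counts in every comparison. RNA was sequenced from HT55 and SW948, both established human colorectal cancer cell lines, after itraconazole at 5 µM or its solvent DMSO, at day 6 by the study's text. The 4 groups, HT55 DMSO, HT55 itraconazole, SW948 DMSO and SW948 itraconazole, hold 4 libraries apiece. All cells were grown attached, with serum and antibiotics and, by the study's methods, at reduced oxygen. Each line is a single line, given 1 dose and read at 1 time, and the replicates were stated as biological by the study's methods but not tied to separate cultures in the labels, so the p-values measure the spread between these libraries.

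Liver X receptors are nuclear receptors that bind oxysterols, the oxidised products of cholesterol and its precursors. Each pairs with a retinoid X receptor on DNA repeats of AGGTCA, and once bound by ligand the pair turns on genes that move cholesterol out of the cell and lower its uptake. SREBP2 works on the other side: when sterol in the endoplasmic reticulum falls, it turns on cholesterol synthesis and uptake. In the intestine, ABCA1 exports cholesterol across the basolateral face of enterocytes. Itraconazole is an azole antifungal that blocks the sterol demethylase of fungi. The comparison asks how genes of the receptor pathway differ between treated and control cells of each line.

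Gene counts per library ran from 8269406 to 11110814, and levels are given as CPM, counts per 1000000 gene counts of a library after TMM scaling, which lines libraries up on the bulk of their genes. All 13 colorectal epithelial markers sought, such as EPCAM and KRT8, were at 1 CPM or more in every group. Of 12 macrophage markers 5 to 7 had any count in a group, with a summed level of 24.2 to 64.7 CPM in HT55 libraries and 206 to 368 CPM in SW948 libraries. Most of that sum in SW948 was LYZ, with means of 318 CPM in DMSO and 110 CPM in itraconazole, and CD68, with 20.5 and 110 CPM. In HT55 most of it was CD68, with 30.5 and 46.1 CPM. The defining markers PTPRC, CSF1R and CD163 had at most 1, 1 and 23 counts over the 4 libraries of a group. Of 10 hepatocyte markers 4 to 6 had a count, with 21.4 to 29.0 CPM in HT55 DMSO, 88.7 to 476 CPM in HT55 itraconazole and at most 2.45 CPM in SW948. Most of that sum in HT55 was SERPINA1, with means of 22.9 CPM in DMSO and 255 CPM in itraconazole. ALB, AHSG and CYP2E1 had at most 1, 3 and 54 counts. Of 9 fibroblast markers 5 or 6 had a count, with at most 12.3 CPM, highest in SW948 itraconazole; COL3A1 was at 0 in every group, DCN had at most 4 counts and COL1A1 21 to 348. The part of these genes in the results below was not tested. Treated libraries differed more among themselves than controls: the chi-square per degree of freedom between pairs was 4.88 to 40.5 in HT55 itraconazole against 1.43 to 2.34 in HT55 DMSO, and 3.76 to 21.5 in SW948 itraconazole against 2.45 to 4.85 in SW948 DMSO. The widest pairs held HT55 itraconazole replicate 3, and values without it are given where a result rests on it.

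In HT55, 4 of the 7 genes passed an adjusted p of 0.05 (edgeR quasi-likelihood test, Benjamini-Hochberg over all genes tested), where 54.0% of all 12133 genes tested did. NR1H2, MYLIP and RXRA rose, a direction that 27.5% of genes took, and LPCAT3 fell, as 26.5% did. In SW948 all 7 passed, where 80.2% of 12505 genes did. ABCG1, MYLIP and RXRA rose (38.9% of genes rose), and NR1H2, NR1H3, ABCA1 and LPCAT3 fell (41.3% fell). In HT55 the 4 called, of 7, stood close to the share over all genes, and in SW948, where most genes changed, all 7 passing is little more than that share, so neither count is a result about these genes.

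Of the 7, MYLIP and RXRA rose in both lines and LPCAT3 fell in both, so 3 changed the same way where 39.4% of the 11448 genes tested in both lines did. NR1H2 changed in opposite ways, rising in HT55 and falling in SW948, as 6.66% of genes did. The change itself differed between the lines for 5 genes (NR1H2, NR1H3, ABCA1, ABCG1 and LPCAT3), against 53.9% of all 13249 genes tested. For ABCG1 the SW948 change was the higher (24.8% of genes), and for the other 4 the lower (29.1%). The median log2 fold change of the 7 was 0.22 in HT55 and -0.65 in SW948, against -0.015 and -0.025 for all genes tested.

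Scaling matters for these counts. On plain library totals, with no TMM factor, the median of all genes moved by -0.17 in HT55 and by -0.33 in SW948, so higher calls made up 32.6% of all calls in place of 51.0% in HT55, and 31.5% in place of 48.5% in SW948. Among the 7 genes, HT55 then had 2 higher and 1 lower, and SW948 had 1 higher and 4 lower, with no gene turning direction. The plot of changes by line shows each estimate with its interval.

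**Figure D1:**
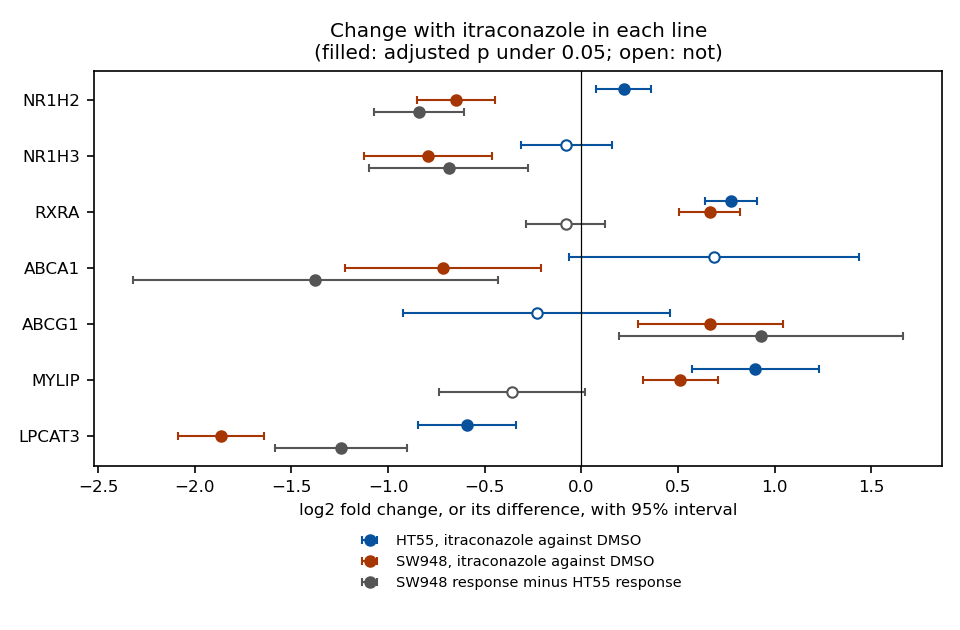
Log2 fold change with itraconazole in HT55 (blue) and SW948 (orange), and the SW948 change minus the HT55 change (grey), with 95% intervals; filled points passed an adjusted p of 0.05 in edgeR. LPCAT3 fell by 0.59 in HT55 and by 1.87 in SW948, RXRA lay at 0.77 and 0.66, and NR1H2 at 0.22 and -0.65 on either side of 0.

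NR1H2 encodes LXR beta, the receptor form that most tissues carry (ENSG00000131408, GRCh37 chr19:50832910-50886645, plus strand, 5341 exonic bases). Its levels in HT55 DMSO were 60.7, 58.5, 60.8 and 53.9 CPM, and in HT55 itraconazole 66.8, 69.2, 69.8 and 67.4 CPM. In SW948 DMSO they were 34.7, 31.2, 35.001 and 33.8 CPM, and in SW948 itraconazole 24.0, 24.0, 18.6 and 21.1 CPM. The treated libraries all lay above the controls in HT55 and all below them in SW948, and none of the 4 groups overlapped another next to it in order. Groups that do not overlap were found for 49.4% of genes in HT55 and 74.7% in SW948.

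The rise of NR1H2 in HT55 was small, at 1.16-fold (log2 fold change 0.22, SE 0.064, adjusted p 0.0146). It missed the threshold on plain library totals (0.05, adjusted p 0.526) and with no filter on low counts (adjusted p 0.0727), and over 16 alternatives its adjusted p ran from 0.00645 to 0.526. In SW948 NR1H2 was 1.57-fold lower (log2 -0.65, SE 0.094, adjusted p 1.85e-05), and on plain totals the log2 value was -0.98. The difference between the responses, -0.84 (95% interval -1.07 to -0.60, adjusted p 4.95e-06), held in all 23 alternatives, plain totals included. In bulk RNA, fewer cells with the transcript and less transcript per cell cannot be told apart, here or for the genes below.

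NR1H3 encodes LXR alpha, the form known for liver, gut and macrophages (ENSG00000025434, GRCh37 chr11:47269851-47290584, plus strand, 4534 exonic bases). Its levels were 14.2, 15.6, 15.1 and 15.9 CPM in HT55 DMSO and 12.7, 14.9, 14.1 and 16.2 CPM in HT55 itraconazole. In SW948 they were 14.5, 15.7, 15.8 and 14.6 CPM in DMSO and 10.3, 10.7, 9.04 and 5.77 CPM in itraconazole. The HT55 groups and SW948 DMSO overlapped each other, and only SW948 itraconazole stood below all of them.

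In HT55 the NR1H3 log2 fold change was -0.08 (95% interval -0.31 to 0.16, adjusted p 0.56), and a change within that interval was not detectable. In SW948 it fell by 0.79 on the log2 scale (SE 0.15, adjusted p 0.000294), to 1.73-fold lower. Replicate 4 of SW948 itraconazole was its lowest library, and without it the fall was 0.62. The responses differed by -0.69 (95% interval -1.10 to -0.28, adjusted p 0.00611). Exons of NR1H3 share 189 bases with ACP2, a lysosomal acid phosphatase gene on the opposite strand, which fell by 3.41 (SE 0.15) on the log2 scale in SW948. Whether counting used strand is not given in the sources used here. It is thus not known whether reads over the shared bases were counted for NR1H3, for ACP2 or set apart as ambiguous. Their part in the NR1H3 value was not tested.

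The balance of the 2 receptors can be read within a library, where scaling plays no part, as a ratio of RPKM (CPM per 1000 exonic bases of the gene). NR1H2 stood above NR1H3 in all 16 libraries. The ratio was 3.28 ± 0.33 (SD, n = 4) in HT55 DMSO, 4.04 ± 0.39 in HT55 itraconazole, 1.89 ± 0.15 in SW948 DMSO and 2.19 ± 0.63 in SW948 itraconazole. The 2 HT55 groups touched, at 2.88 to 3.63 and 3.54 to 4.46, and so did the SW948 groups, at 1.69 to 2.03 and 1.75 to 3.11. LXR beta was thus the more abundant receptor transcript in every group, by more in HT55 than in SW948.

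RXRA encodes the retinoid X receptor that pairs with both liver X receptors and with many other nuclear receptors (ENSG00000186350, GRCh37 chr9:137208944-137332431, plus strand, 12077 exonic bases). In HT55 it was at 159.1, 149, 156 and 158 CPM in DMSO and at 264, 266, 250.1 and 287 CPM in itraconazole. In SW948 it was at 74.9, 71.0, 86.9 and 77.3 CPM in DMSO and at 127, 124, 135 and 116 CPM in itraconazole. RXRA was higher in every treated library than in any control of its line, and the 4 groups did not overlap at all.

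The rise of RXRA was 1.71-fold in HT55 (log2 0.77, SE 0.061, adjusted p 8.80e-06) and 1.58-fold in SW948 (log2 0.66, SE 0.074, adjusted p 1.32e-06). The difference between the lines was -0.08 (95% interval -0.29 to 0.12, adjusted p 0.505). On plain library totals that difference was -0.27 (adjusted p 0.0211), with adjusted p from 0.0211 to 0.85 over 23 alternatives, so whether the lines differed here depended on the scaling. The rise in each line passed in all 16 alternatives, but on plain totals its size in SW948 was 0.33 in place of 0.66, and in HT55 0.61.

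ABCA1 encodes the transporter that hands cholesterol and phospholipid to lipid-poor apolipoprotein A-I, and is among the classic liver X receptor targets (ENSG00000165029, GRCh37 chr9:107543287-107690436, minus strand, 11343 exonic bases). Its promoter is shown because it was the only one among the members' windows with a close match to the receptor pair's repeat. The 250 bases before its start in the RefSeq table, on GRCh38.p14 chr9:104928156-104928405, minus strand, read 5′ to 3′ with the match in capitals:
ABCA1: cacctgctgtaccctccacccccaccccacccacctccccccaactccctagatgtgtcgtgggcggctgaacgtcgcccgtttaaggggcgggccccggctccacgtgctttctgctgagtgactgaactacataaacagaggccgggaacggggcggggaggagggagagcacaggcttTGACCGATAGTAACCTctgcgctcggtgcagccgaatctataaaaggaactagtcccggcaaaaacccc
The match runs from 69 to 54 bases before the start. Read on the other strand it is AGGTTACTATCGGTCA, which differs from AGGTCA, 4 bases of any kind and AGGTCA again, counted from 1 at the 5′ end of that repeat, by C5T and A11C. The search covered both strands and allowed 2 mismatches in the 12 fixed letters, and 2.34% of all 35116 windows of 300 bases held such a match. The ABCA1 window also held 1 E-box, CACGTG, which 7.26% of windows hold, and 3 GC boxes, GGGCGG, none of which overlaps the repeat.

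ABCA1 was among the low genes, with 10 to 89 counts in a library. Its levels in HT55 were 5.85, 3.71, 2.23 and 3.32 CPM in DMSO and 4.39, 3.54, 8.47 and 7.83 CPM in itraconazole. In SW948 they were 2.57, 3.22, 1.998 and 2.16 CPM in DMSO and 1.90, 1.42, 1.27 and 1.47 CPM in itraconazole. In HT55 the treated libraries split, 2 within the range of the controls and 2 above it, while in SW948 every treated library lay below every control, by a small margin.

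In HT55 the log2 fold change of ABCA1 was 0.69 (95% interval -0.06 to 1.43, adjusted p 0.109), which did not pass. It passed without HT55 DMSO replicate 1 (0.99, adjusted p 0.0403), without HT55 itraconazole replicate 2 (0.87, adjusted p 0.0357) and in 1 fit on all 16 libraries (0.69, adjusted p 0.0442), and it was 0.48 without HT55 itraconazole replicate 3. Over 16 alternatives its adjusted p ran from 0.0357 to 0.252. In SW948 ABCA1 fell by 0.71 (SE 0.24, adjusted p 0.0125), to 1.64-fold lower, and missed the threshold in the fit on all 16 libraries (adjusted p 0.086, with 0.00132 to 0.086 over 16 alternatives). The responses differed by -1.38 (95% interval -2.32 to -0.43, adjusted p 0.0147), and by -1.16 without HT55 itraconazole replicate 3.

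ABCG1 encodes the transporter that loads cholesterol onto high-density lipoprotein particles, a partner of ABCA1 in efflux (ENSG00000160179, GRCh37 chr21:43619799-43717354, plus strand, 6121 exonic bases). It was also low, with 12 to 52 counts in a library. Its levels in HT55 were 3.03, 2.68, 1.27 and 2.37 CPM in DMSO and 2.49, 1.65, 1.33 and 2.61 CPM in itraconazole. In SW948 they were 2.81, 3.98, 3.47 and 3.31 CPM in DMSO and 4.51, 6.71, 5.60 and 5.31 CPM in itraconazole. The HT55 groups overlapped over most of their range, and the SW948 treated libraries all stood above their controls.

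In HT55 the ABCG1 log2 fold change was -0.23 (95% interval -0.92 to 0.46, adjusted p 0.549), too wide to show a difference at this depth. In SW948 it rose 1.59-fold (log2 0.67, SE 0.17, adjusted p 0.00293). The SW948 rise missed the threshold on plain library totals (0.34, adjusted p 0.0836, with 0.000878 to 0.0836 over 16 alternatives). The responses differed by 0.93 (95% interval 0.20 to 1.67, adjusted p 0.0314). That difference was lost on plain library totals (0.73, adjusted p 0.0793) and without any 1 of 7 libraries: replicates 1, 2 and 4 of HT55 DMSO, 2 and 3 of HT55 itraconazole, 1 of SW948 DMSO and 2 of SW948 itraconazole. Over 23 alternatives its adjusted p ran from 0.00668 to 0.0865.

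The 2 exporters thus moved apart in SW948, ABCA1 down and ABCG1 up. Within libraries the ratio of ABCG1 to ABCA1, in RPKM, was 2.60 ± 0.54 (SD, n = 4) in SW948 DMSO and 7.001 ± 1.94 in SW948 itraconazole, and the groups did not overlap, at 2.03 to 3.22 and 4.39 to 8.76. In HT55 it was 1.17 ± 0.19 in DMSO and 0.71 ± 0.33 in itraconazole, and the groups overlapped, at 0.96 to 1.34 and 0.29 to 1.05. These ratios do not depend on how libraries are scaled. In SW948 their separation follows from the levels of ABCA1 and ABCG1, as each already separated, in opposite directions, so it is no further result. The plot of ratios within libraries shows all 16.

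**Figure D2:**
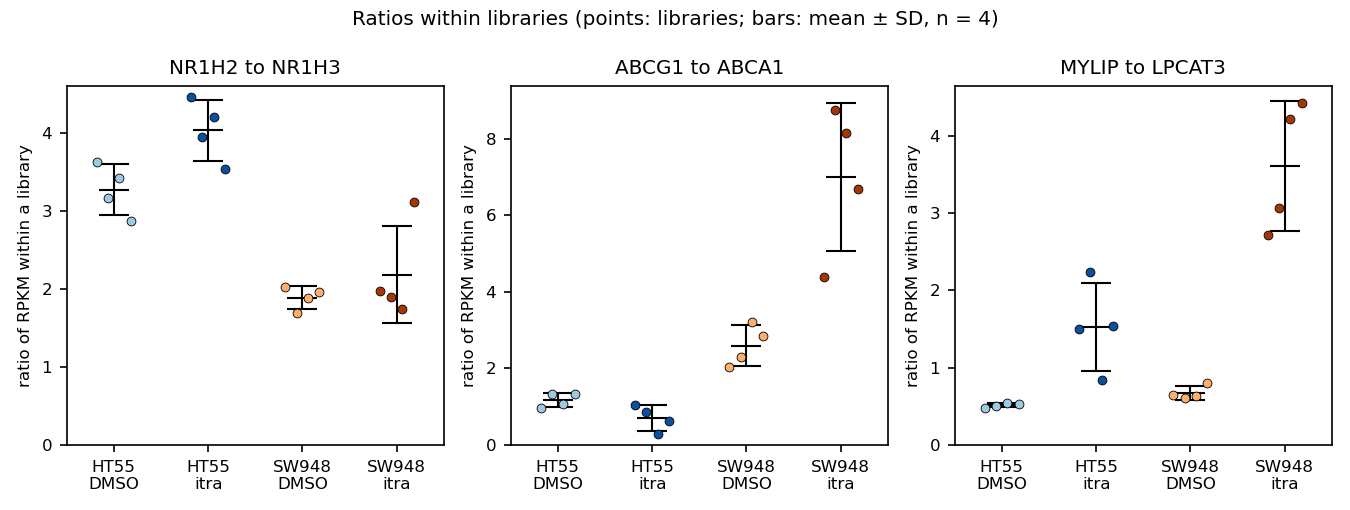
Ratio of RPKM of 2 genes within each library (points), with mean ± SD (bars, n = 4 libraries per group), for NR1H2 to NR1H3, ABCG1 to ABCA1 and MYLIP to LPCAT3. The ABCG1 to ABCA1 ratio lay at 4.39 to 8.76 in SW948 itraconazole and at 3.22 or below in all other libraries.

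MYLIP encodes the ubiquitin ligase, also called IDOL, that marks lipoprotein receptors for degradation and so lowers cholesterol uptake (ENSG00000007944, GRCh37 chr6:16129317-16148479, plus strand, 3072 exonic bases). Its promoter and that of LPCAT3 are shown for contrast, as members that moved in opposite directions in both lines. The 250 bases before the MYLIP start in the RefSeq table lie on GRCh38.p14 at chr6:16128836-16129085, plus strand, with GC boxes (GGGCGG on either strand, found in 45.0% of all windows) in capitals:
MYLIP: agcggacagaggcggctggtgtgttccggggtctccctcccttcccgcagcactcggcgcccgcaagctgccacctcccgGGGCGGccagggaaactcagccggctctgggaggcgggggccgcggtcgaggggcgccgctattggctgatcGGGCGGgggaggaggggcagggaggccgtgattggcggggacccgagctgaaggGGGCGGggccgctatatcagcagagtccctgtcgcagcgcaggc
The window held 3 GC boxes and no E-box, and no match to the receptor repeat closer than 4 mismatches. Bases outside the windows were not searched, so a repeat farther from the start would have been missed.

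MYLIP stood at 34.3, 35.1, 35.5 and 37.6 CPM in HT55 DMSO and at 61.2, 87.5, 48.8 and 69.5 CPM in HT55 itraconazole. In SW948 it stood at 27.0, 25.6, 26.6 and 30.5 CPM in DMSO and at 35.3, 40.4, 43.9 and 40.9 CPM in itraconazole. Every treated library exceeded every control of its line, and the treated HT55 libraries were spread widely, with replicate 3 the nearest to the controls.

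MYLIP rose 1.86-fold in HT55 (log2 0.90, SE 0.15, adjusted p 0.000645) and 1.43-fold in SW948 (log2 0.51, SE 0.09, adjusted p 0.000119). Without HT55 itraconazole replicate 3 the HT55 rise was 1.04. On plain library totals the SW948 rise was 0.18 (adjusted p 0.0652, with 8.13e-07 to 0.0652 over 16 alternatives). The difference between the responses, -0.36 (95% interval -0.74 to 0.02, adjusted p 0.103), did not pass. It passed without HT55 itraconazole replicate 3 (-0.50, adjusted p 0.00591), on plain library totals (-0.54, adjusted p 0.00672) and with no filter (-0.36, adjusted p 0.0489), and over 23 alternatives the adjusted p ran from 0.00591 to 0.256.

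LPCAT3 encodes an acyltransferase of the endoplasmic reticulum that puts polyunsaturated chains into phospholipids, and is a liver X receptor target in liver and gut (ENSG00000111684, GRCh37 chr12:7085347-7125781, minus strand, 4692 exonic bases). The 250 bases before its start lie on GRCh38.p14 at chr12:7018477-7018726, minus strand, with GC boxes again in capitals, written CCGCCC where they lie on the other strand:
LPCAT3: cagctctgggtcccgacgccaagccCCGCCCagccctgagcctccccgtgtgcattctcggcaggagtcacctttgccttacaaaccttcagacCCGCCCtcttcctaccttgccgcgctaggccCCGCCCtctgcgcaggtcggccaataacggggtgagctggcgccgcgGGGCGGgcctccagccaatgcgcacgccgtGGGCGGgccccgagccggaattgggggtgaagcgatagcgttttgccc
It held 5 GC boxes, no E-box, and again no repeat closer than 4 mismatches, as in the MYLIP window. The RefSeq table held windows for 6 of the genes and none for ABCG1. None of their 10 windows held the sterol response element TCACNCCAC, which 1.13% of all windows hold.

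LPCAT3 stood at 109, 105, 100.4 and 108 CPM in HT55 DMSO and at 62.2, 59.7, 89.3 and 68.8 CPM in HT55 itraconazole. In SW948 it stood at 64.1, 64.0, 63.6 and 58.1 CPM in DMSO and at 19.8, 20.1, 15.9 and 14.1 CPM in itraconazole. Every treated library lay below every control of its line, and the fall took SW948 far under all other groups. Treated HT55 overlapped SW948 DMSO.

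LPCAT3 was 1.51-fold lower in HT55 (log2 -0.59, SE 0.11, adjusted p 0.00158) and 3.64-fold lower in SW948 (log2 -1.87, SE 0.10, adjusted p 1.46e-09). Without HT55 itraconazole replicate 3, the highest of its group, the HT55 value was -0.72. The responses differed by -1.24 (95% interval -1.58 to -0.90, adjusted p 3.88e-06), and all alternatives kept the call. LPCAT3 shares 3096 exonic bases with EMG1, a ribosome biogenesis gene on the opposite strand that fell by 0.81 (SE 0.11) in HT55 and fell by 1.63 (SE 0.11) in SW948. EMG1 had 46 to 279 counts in a library against 125 to 1022 for LPCAT3. It is not known whether reads over the shared bases were counted for LPCAT3, for EMG1 or set apart as ambiguous. Their part in the LPCAT3 fall was not tested. If they were set apart, the LPCAT3 RPKM values are too low and the MYLIP to LPCAT3 ratios too high.

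MYLIP and LPCAT3 therefore parted in both lines. The ratio of MYLIP to LPCAT3 in RPKM rose from 0.52 ± 0.025 (SD, n = 4) in HT55 DMSO to 1.53 ± 0.57 in HT55 itraconazole, and from 0.67 ± 0.087 in SW948 DMSO to 3.60 ± 0.84 in SW948 itraconazole. In neither line did the groups overlap, which follows from the levels of MYLIP and LPCAT3, as each already separated, in opposite directions. That separation is no further result. Every treated ratio in SW948, at 2.72 to 4.42, lay above every other library.

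**Figure D3:**
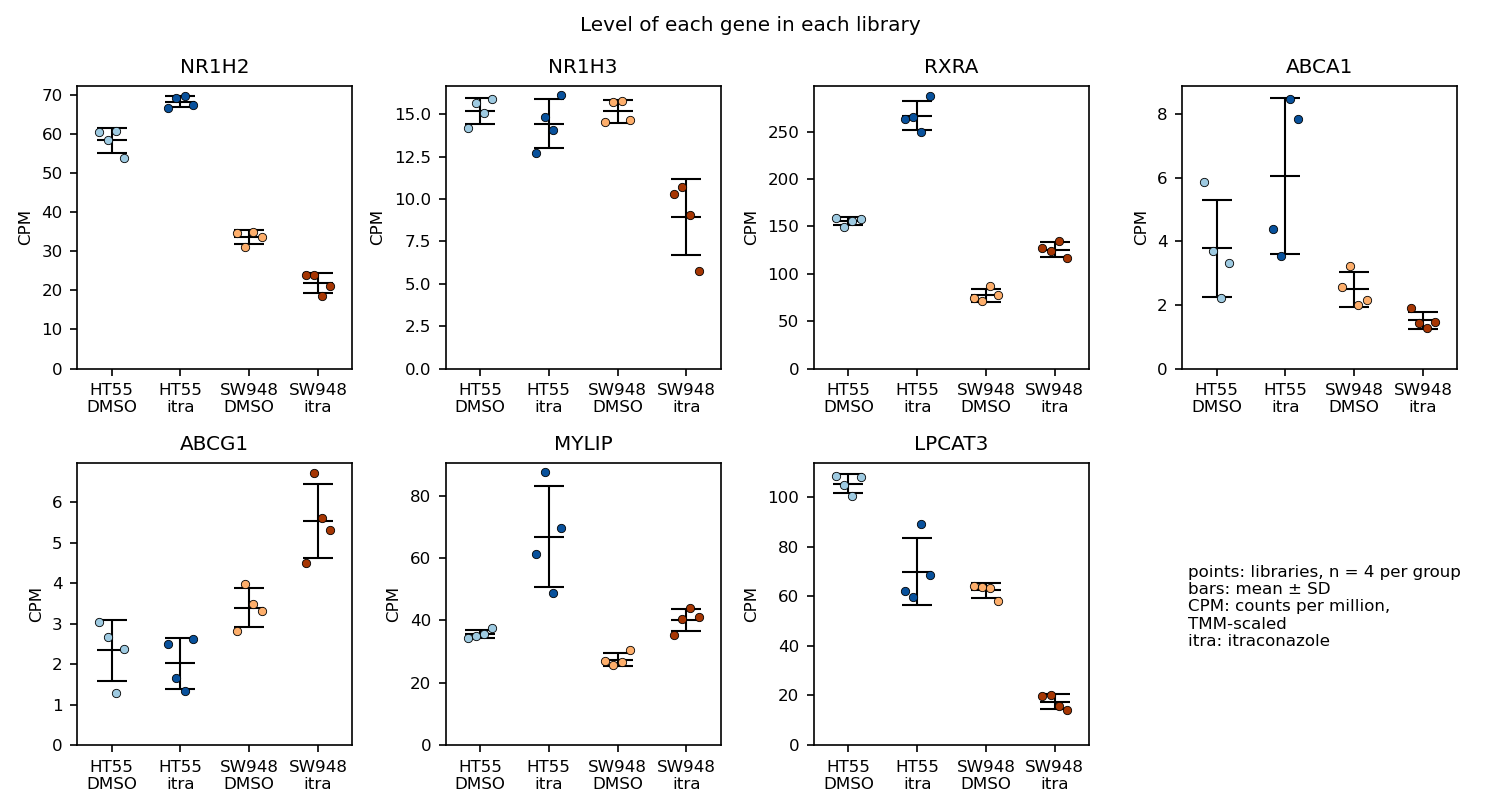
Level of each of the 7 genes in each library (points), in TMM-scaled CPM on axes from 0, with mean ± SD (bars, n = 4 libraries per group) for HT55 (blue) and SW948 (orange), DMSO (light) and itraconazole (dark). Treated and control libraries separated in both lines for NR1H2, RXRA, MYLIP and LPCAT3; ABCA1 and ABCG1 stayed under 9 CPM throughout.

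Compared per length, the exporters were the least abundant of the 7 in every group. Mean RPKM in HT55 DMSO was 22.5 for LPCAT3, 12.9 for RXRA, 11.6 for MYLIP, 10.9 for NR1H2, 3.35 for NR1H3, 0.38 for ABCG1 and 0.33 for ABCA1. In SW948 itraconazole it was 13.1 for MYLIP, 10.4 for RXRA, 4.11 for NR1H2, 3.73 for LPCAT3, 1.98 for NR1H3, 0.90 for ABCG1 and 0.13 for ABCA1. LPCAT3 was thus the most abundant of the 7 in the first of these groups and in the middle in the second, but these groups differ in both line and drug. In SW948 DMSO LPCAT3 was again the highest, at 13.3, and in HT55 itraconazole, at 14.9, it stood below RXRA at 22.1 and MYLIP at 21.7. The LPCAT3 RPKM was taken over all 4692 exonic bases, of which 3096 are shared with EMG1. Its place among the 7 would be too low if reads over those bases were set apart as ambiguous. The range of the 4 group means, on the log2 CPM scale, was widest for LPCAT3, at 2.59, and narrowest for NR1H3, at 0.79.

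The lines also differed before treatment. In DMSO, SW948 was lower than HT55 in 4 of the 7 genes, where 75.9% of 13249 genes differed, 38.2% higher and 37.7% lower in SW948. The libraries of the lines did not overlap for these 4, as for 78.0% of genes. The log2 difference was -1.005 (SE 0.07, adjusted p 1.01e-10) for RXRA, -0.80 (SE 0.077, adjusted p 1.44e-08) for NR1H2, -0.76 (SE 0.11, adjusted p 2.81e-06) for LPCAT3 and -0.38 (SE 0.13, adjusted p 0.0131) for MYLIP. The MYLIP difference was lost on plain totals (-0.18, adjusted p 0.154, with 0.00161 to 0.154 over 23 alternatives). NR1H3 was level, at -0.0034 (95% interval -0.28 to 0.27).

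ABCA1 (-0.61, 95% interval -1.24 to 0.02, adjusted p 0.0745) and ABCG1 (0.53, 95% interval 0.02 to 1.04, adjusted p 0.0557) did not pass in DMSO, and both calls depended on single libraries. ABCA1 passed without HT55 DMSO replicate 3 (-0.79, adjusted p 0.0247) or HT55 itraconazole replicate 2 (-0.61, adjusted p 0.0486) and with no filter (-0.60, adjusted p 0.0292), with 0.0247 to 0.37 over 23 alternatives. ABCG1 passed without HT55 DMSO replicate 1, HT55 itraconazole replicate 3 or 4, or SW948 DMSO replicate 1 (0.54 to 0.68), on plain totals (0.73) and with at least 10 counts in every library (0.55), with adjusted p from 0.0102 to 0.209 over 23 alternatives.

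Under itraconazole all 7 genes differed between the lines, where 80.9% of genes did. ABCG1 was 2.75-fold higher in SW948, a direction 39.3% of genes took (log2 1.46, SE 0.25, adjusted p 1.98e-05), and the other 6 were lower in SW948, as 41.5% of genes were. LPCAT3 was 4.01-fold lower (log2 -2.002, SE 0.12, adjusted p 1.10e-11), ABCA1 3.96-fold lower (log2 -1.98, SE 0.33, adjusted p 1.39e-05) and NR1H2 3.11-fold lower (log2 -1.64, SE 0.082, adjusted p 5.13e-13). RXRA, MYLIP and NR1H3 lay between -0.69 and -1.09. For all 7 the groups of treated libraries did not overlap, as was so for 69.7% of genes.

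Other genes of the pathway were read from lists written from general knowledge, with counts only and no test of the list; the counts are to be read beside the 27.5% of all genes that rose and 26.5% that fell in HT55, and the 38.9% and 41.3% in SW948. Of 25 other liver X receptor targets, 24 matched and 13 were tested in HT55, where 7 rose and 4 fell (median log2 fold change 0.42, and 6 and 4 on plain totals). In SW948 17 were tested, 12 rose and 4 fell (median 1.01), and on plain totals 9 rose and 5 fell. Of the other efflux and storage genes, 11 rose and none fell of 12 tested in HT55 (8 and 0 on plain totals), and in SW948 9 rose and 3 fell of 14 (6 and 6 on plain totals). NPC1 and NPC2, which release cholesterol from lysosomes, rose by 1.18 and 1.09 in HT55 and by 2.47 and 2.02 in SW948.

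Among the other targets were genes of fatty acid synthesis that SREBP proteins are also known to control. FASN, which makes fatty acids, rose by 1.25 in HT55 and 1.60 in SW948 on the log2 scale, and SCD, which desaturates them, by 0.84 and 2.34. FADS2, a further desaturase, rose by 1.16 and 2.61. PNPLA3, a lipid droplet gene, was not tested in HT55 and rose by 3.42 in SW948 from 9 counts in all to 75. SREBF1, itself a liver X receptor target and the gene of SREBP1, fell by 0.43 (SE 0.06, adjusted p 0.000261) in HT55 and rose by 0.49 (SE 0.09, adjusted p 0.000198) in SW948.

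The remaining targets were mixed. SMPDL3A, a secreted phosphodiesterase, rose by 1.61 in HT55 and 0.54 in SW948, and MERTK, a receptor for the uptake of dying cells, by 1.58 and 1.09. EEPD1 fell in both lines, by 0.67 and 1.33, and LBR, a sterol reductase of the nuclear membrane, fell by 0.26 and 0.30. MLXIPL also fell in HT55, by 0.73, and PLTP, a lipid transfer protein, in SW948, by 0.38. APOE, the lipid carrier, was below the filter in HT55 with 15 counts in DMSO and 32 in itraconazole, and rose by 2.14 in SW948, from 68 counts to 224. ABCG5 and ABCG8, the intestinal sterol exporters, had at most 1 count in any group's 4 libraries, so this further route of sterol export was not detectable at this depth.

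SREBP2 targets, the pathway's counterpart, were all 25 tested in both lines. In each line 23 rose and 1 fell, with a median log2 fold change of 0.78 in HT55 and 2.41 in SW948, and 21 rose in each on plain totals. SREBF2 rose by 0.66 and 1.58, MSMO1 by 1.92 and 4.77, and INSIG1 by 1.83 and 6.18. The gene that fell in both lines was PMVK, by 0.91 and 1.68. Of the 7 genes, RXRA and MYLIP rose and LPCAT3 fell in the same libraries, in both lines.

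**Figure D4:**
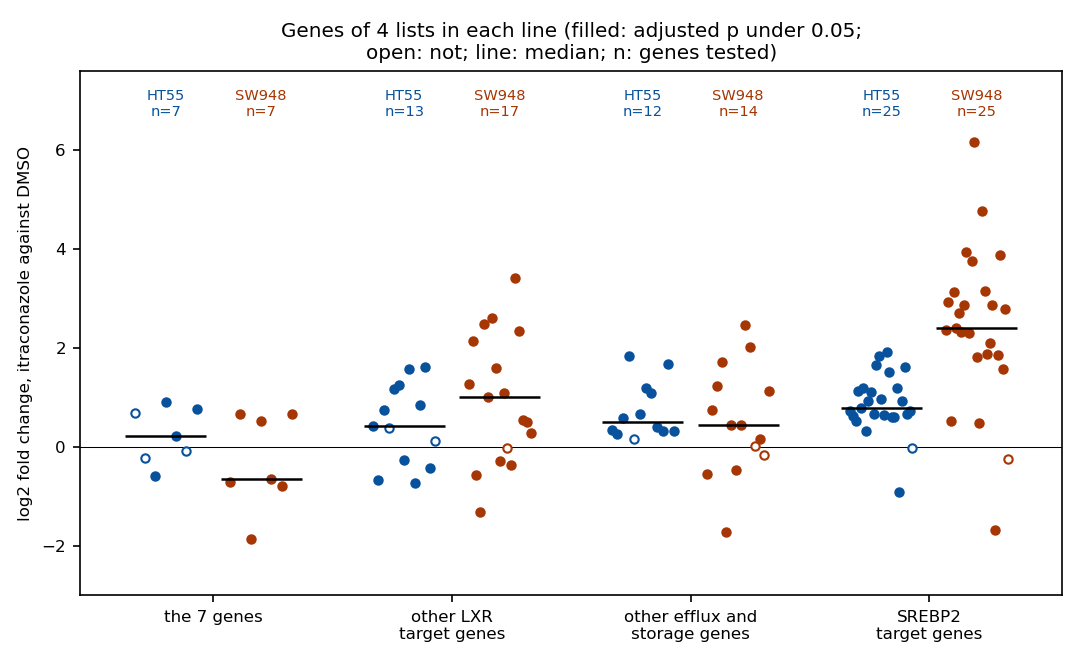
Log2 fold change with itraconazole of each gene tested (points) in 4 lists, in HT55 (blue) and SW948 (orange); filled points passed an adjusted p of 0.05 in edgeR, and black lines are medians. The medians were 0.22 and -0.65 for the 7 genes, 0.42 and 1.01 for other liver X receptor targets, and 0.78 and 2.41 for SREBP2 targets, with no test between lists.

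Lipoprotein receptors and partners of MYLIP were read as a list of 12. VLDLR, a MYLIP substrate, fell by 1.17 in HT55, with -0.42 (adjusted p 0.1) in SW948. USP2, a deubiquitinase known to act on MYLIP, rose by 1.71 in SW948 and was below the filter in HT55. In that list HT55 had 5 higher and 2 lower of 11 tested, and SW948 7 higher and 1 lower of 12, but on plain totals the split was 4 to 4 and 4 to 5.

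LPCAT3 belongs to a family of lysophospholipid acyltransferases, and the other 11 were mixed, with 5 higher and 1 lower in HT55 (4 and 2 on plain totals), and 5 higher and 4 lower in SW948 (5 and 6 on plain totals). LPCAT2, which acts on the same lipid class, rose by 1.18 and 0.84, and MBOAT2 by 0.81 and 1.34. LCLAT1 fell in both lines, by 0.66 and 1.36.

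Partners and cofactors of the receptors were the last lists. RXRB, the other RXR found in these cells, was at -0.14 (adjusted p 0.318) in HT55 and -0.17 (adjusted p 0.0655) in SW948, while RXRG had 2 counts in all. Of 12 tested RXR relatives and partners, HT55 had 8 higher and none lower, and SW948 10 higher and 1 lower (7 and 1, and 8 and 2, on plain totals). NR4A1 rose by 2.86 and 3.96, THRB by 2.11 and 0.29, and VDR, the vitamin D receptor, rose by 0.31 in HT55 and fell by 1.80 in SW948. THRB turned to -0.03 in SW948 on plain totals.

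Of 16 corepressors and coactivators, 7 rose and none fell in HT55, against 27.5% and 26.5% of all genes, while SW948 had 2 higher and 8 lower, against 38.9% and 41.3%, with no test of the list between the lines. On plain totals these were 6 and 3, and 2 and 13. The coactivator NCOA3 rose by 0.97 and 0.79. GPS2, a corepressor subunit, fell by 0.95 in SW948, with -0.25 (adjusted p 0.119) in HT55.

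Enzymes that make or break down receptor ligands were mostly raised among the 9 tested, with 7 rising and 1 falling in each line (5 and 1 in SW948 on plain totals). SQLE, which makes squalene epoxide, rose by 1.62 and 3.87. CYP39A1, an oxysterol hydroxylase, fell by 1.17 and 3.59. CH25H, which makes 25-hydroxycholesterol, had 0 counts in all 16 libraries. By counting error, 0 in 1 library taken alone allows an expected count of up to 3, and 0 in all 16 allows less.

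LPCAT3 and ABCA1 had the widest ranges over the groups, and the protein-coding genes most like them were sought by the root mean square difference of log2 CPM over 16 libraries, after each gene's own mean was taken off, among 8987 genes. Among the nearest to LPCAT3 were CTDSP1 (0.16) and MECOM (0.17). MECOM went from 136 to 87.9 CPM in HT55 and from 76.8 to 24.8 CPM in SW948, as group means. Nearest to ABCA1 were RHOU (0.33), FAM219B (0.33) and VPS13D (0.35). RHOU, for example, went from 202 to 321 CPM in HT55 and from 117 to 88.2 CPM in SW948. The 16 libraries of these comparisons are shared by all genes, and the likeness is a description of levels.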

How the data were processed

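By the labels and the study's methods, RNA was purified on RNeasy Micro columns, and TruSeq libraries were read from one end over 50 bases. The submitters' processing notes name TopHat, HTSeq and DESeq without versions, and the build hg19. The deposited values are raw counts of reads per Ensembl gene, not normalised by the authors; the annotation release and strand setting are not given in the sources used here. Reads set apart by the counter were 22.0 to 27.9% not unique, 3.79 to 4.94% outside genes and 1.23 to 1.48% ambiguous, so genes with near-identical copies lose reads.

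Genes were tested with edgeR 4.0.16 in R 4.3.3 (quasi-likelihood, TMM, filterByExpr, no covariate), on the 8 libraries of a line for the drug and on all 16 for the interaction and the lines, with Benjamini-Hochberg adjustment over all genes tested and a threshold of 0.05. Fold changes come from these fits, and CPM levels from TMM over all 16 libraries. Members and lists were chosen with earlier results of these data known. Named were all 7 members, 16 fixed pathway genes and, per list and line, the 2 largest called changes without overlap of groups; EEPD1, LBR, MLXIPL, PLTP, PMVK and RXRG were named after their values were seen, to complete short counts, and EMG1 and ACP2 because they overlap members. Some genes that this rule names are not reported here. Gene coordinates are from GENCODE on GRCh37 and promoters from RefSeq on GRCh38.p14. Alternatives were DESeq2 1.42.0, its size factors, plain totals, other filters and thresholds, the 20 top and the mitochondrial genes left out, a replicate block, 1 fit on 16 libraries and each library left out. Scripts were tested on simulated data. With 4 libraries per group, intervals cover the spread between them only.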

Additional observations from a re-analysis of the deposited data

Results flagged for a closer look

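The drug response differed between the lines for 5 of the 7 genes by a tested interaction in edgeR, against 53.9% of 13249 genes tested. As SW948 minus HT55 on the log2 scale, it was -0.84 for NR1H2, -0.69 for NR1H3, -1.38 for ABCA1, 0.93 for ABCG1 and -1.24 for LPCAT3.

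In SW948 DMSO, the LPCAT3 level of replicate 4, at 58.1 CPM, lay below the other 3 at 63.6 to 64.1 CPM, and that gap was 0.919 of the group's range, above Dixon's 95% limit for 4 values. It was the single such library among the 28 groups of 4 examined (7 genes in 4 groups), and chance gives about 1 in 20. The fall of LPCAT3 in SW948 ran from -1.93 to -1.77 with any 1 library left out.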

How the results depend on the processing

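The numbers of the 7 genes called stayed within 1.5 times of the values reported under the alternatives run, but for the interaction at an adjusted p of 0.01, which left 3. With 1 library left out, 4 to 5 genes changed in HT55 and 7 in SW948, 4 to 5 had an interaction, and 4 to 5 (DMSO) and 7 (itraconazole) differed between lines. Same-numbered libraries correlated at -0.031 to 0.153 in HT55 and 0.0033 to 0.167 in SW948, so the numbers were not taken as pairs; with a replicate block the counts were 4, 7, 5, 4 and 7, as reported, and 6300, 9973 and 7037 over all genes for HT55, SW948 and the interaction. The DESeq2 test and its size factors also gave 4, 7, 5, 4 and 7. NR1H3 between lines in DMSO, at -0.0034, had no direction: it was 0.19 on plain totals, 0.0089 with no filter, 0.022 with at least 10 counts in every library, 0.0025 without the top and mitochondrial genes and -0.030 to 0.029 with 1 library left out. With 1 library left out, 21 to 23 SREBP2 targets rose in HT55 and 23 in SW948, and 7 to 8 and 12 other liver X receptor targets rose; the latter numbered 8 in HT55 in DESeq2 and with the replicate block. At 10 to 89 counts, ABCA1 and ABCG1 limit what can be called. The cause of the shift under plain totals was not tested.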
